A study of Homo sapiens with 4 samples.

Results

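The transcripts of 10 genes that p53 is known to activate under stress were followed in MDA-MB-231, a human breast cancer cell line. The genes were MDM2, GDF15, TP53INP1, ZMAT3, PLK2, PLK3, BTG2, GADD45A, SESN1 and RRM2B. They were taken by symbol, which gave 17 of the 47323 probes on the array. Total RNA was hybridised to Illumina bead arrays (HumanHT-12 v4). Control cells had received a scrambled shRNA (shCntrl, n = 2 arrays), and the others an shRNA against TRPM7, a cation channel with a kinase domain (shT7#1, n = 2 arrays). Both groups were grown in DMEM with fetal bovine serum, and the labels name no stress treatment. The labels give a single TRPM7 shRNA and do not say whether cells were pooled or cloned, or whether the 2 arrays of a group came from separate cultures. The p-values therefore measure the spread between these arrays, which may be technical.

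The transcription factor p53 is stabilised by DNA damage and other stresses and binds response elements in its target genes. Its targets slow the cell cycle, repair DNA, limit oxidants, start apoptosis, and, through the ubiquitin ligase MDM2, remove p53 again. Several of the same genes are also switched on by other stress factors such as ATF4 and by growth and inflammatory signals. The arrays measured transcripts and not p53 activity, so no change below is read as a readout of working p53.

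The DNA around the gene starts is shown because it marks which members carry a p53 motif close to where transcription begins. RefSeq start windows (build GRCh38.p14), each of 250 bases before and 50 after an annotated start, were found for 7 members, BTG2, GDF15, MDM2, PLK2, PLK3, SESN1 and ZMAT3, in 13 windows. They were searched for the palindromic p53 half-site of 10 bases without mismatch. The full element was defined as a pair of half-sites with no spacer, at most 3 mismatches in 20 bases, and both cores of the form CNNG. A full element lay in 4 of the 13 windows, of which 2 overlap and hold the same MDM2 element, and in 1.12% of the 35116 windows of all genes. Counted by gene, these were 3 of 7 members, MDM2, GDF15 and SESN1, and 1.37% of the 27305 genes with a window. An exact half-site lay in 2 of the 13 windows, 1 each of PLK2 and SESN1, and in 6.63% of all windows and 8.06% of all genes with a window. Genes differ in their number of windows, so these shares are descriptions. The half-site of SESN1 is the first part of its full element. The full elements follow, 5′ to 3′ on the strand of the gene, with the cores of 4 bases in capitals. They lie at chr12:68808923-68808942 on the plus strand, chr19:18386186-18386205 on the plus strand and chr6:109009018-109009037 on the minus strand.
MDM2: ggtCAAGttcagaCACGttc
GDF15: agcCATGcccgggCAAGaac
SESN1: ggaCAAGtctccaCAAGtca
The 250 bases before the start of PLK2, the 1 member called as changed, lie at chr5:58460087-58460336 on the minus strand, with the half-site in capitals.
PLK2: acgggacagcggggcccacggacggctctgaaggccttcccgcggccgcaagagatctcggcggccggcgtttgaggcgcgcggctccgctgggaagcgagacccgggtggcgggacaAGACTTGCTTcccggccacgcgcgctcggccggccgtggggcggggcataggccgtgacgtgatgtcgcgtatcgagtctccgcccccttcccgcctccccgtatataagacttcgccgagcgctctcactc
A match is a description of letters and says nothing about binding in these cells, and response elements elsewhere in a gene lie outside these windows.

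**Figure D1:**
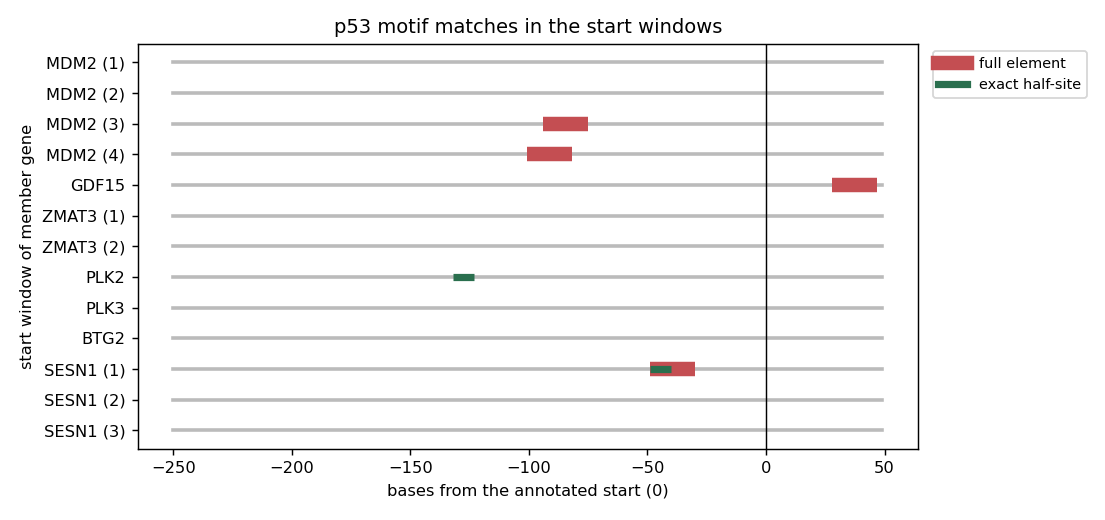
Matches to the p53 half-site (green) and to the full element (red) in the 13 start windows of 7 members; the x axis gives bases from the annotated start, and each grey line is a window, numbered where a gene has several. Counted from 0 at the start, the MDM2 element begins at -94 or -101 in 2 overlapping windows, that of SESN1 at -49 and that of GDF15 at 28, and the PLK2 half-site begins at -132.

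Across the arrays, between 19492 and 20261 probes were above background (detection p under 0.05), and tested genes correlated at 0.993 to 0.994 within groups and at 0.982 to 0.984 across them. The TRPM7 probe was not above background on any array, so the arrays give no check of the knockdown and the labels were taken as given. All 6 markers of a mesenchymal-like breast line (VIM, CD44, AXL, CAV1, KRT18, KRT8) were above background on both arrays of each group. ESR1, PGR and CDH1 were not, while GATA3 and EPCAM were, in both groups. Of the markers of other cell types, the leukocyte gene PTPRC and the endothelial genes VWF and CDH5 were not above background on both arrays of either group, and neither were the fibroblast genes COL1A1 and DCN. CD14 and PDGFRB were above background in both groups, and LUM and PECAM1 on both arrays of shCntrl alone. The part of other cells in the results was not tested. In bulk RNA, fewer cells carrying a transcript and less of it per cell cannot be told apart.

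PLK2 was the only tested member that changed between the groups by the test used, and it rose 2.38-fold in shT7#1. GADD45A was higher in shT7#1 at each of its 2 probes without passing the test. TP53INP1 was lower at its brighter probe without passing, and MDM2 and PLK3 lay at the edge of detection. BTG2 could not be tested. Of the 17 probes, 13 passed the detection filter (above background on at least 2 of 4 arrays) and represented 9 of the 10 genes, while 11 probes of 7 genes were above background on all 4 arrays. Of the 9 tested members, 1 was called higher and 0 were called lower by limma with Benjamini-Hochberg adjustment over 14731 genes at a threshold of 0.05. Over all genes tested, 2.95% were called higher and 3.55% lower, 6.5% in all. In the fit over all 20366 passing probes, 1 of the 13 member probes was called, the PLK2 probe, where 4.66% of all probes were called and 2.09% were called higher. At an unadjusted limma p under 0.05 the members counted 2, PLK2 and GADD45A, where 25.9% of all genes did so. The arrays of the 2 groups did not overlap for 4 of the 9 tested members, 3 of them higher and 1 lower in shT7#1, against 55.7% of all genes (27.5% higher and 28.2% lower). The median log2 change of the 9 was 0.03, and that of all genes tested was -0.0003.

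**Figure D2:**
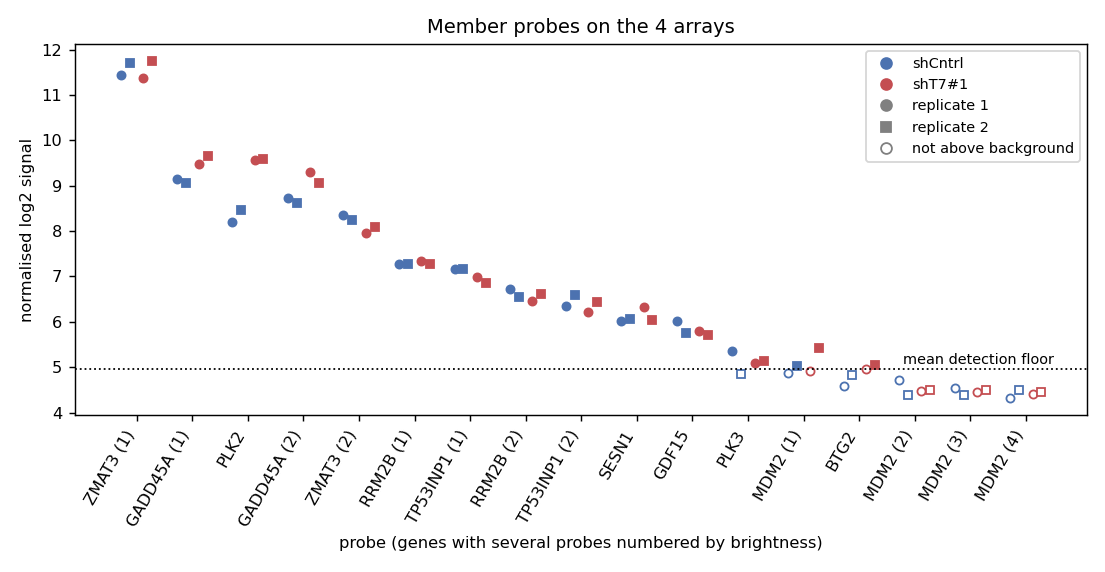
Normalised log2 signal of the 17 member probes (x axis) on the 4 arrays, blue for shCntrl and red for shT7#1, with circles for replicate 1, squares for replicate 2 and open symbols where the probe was not above background; the dotted line is the mean detection floor. Signals of different probes are not comparable in amount. PLK2, both GADD45A probes, BTG2 and the brighter RRM2B probe have both red points above both blue points. The brighter TP53INP1 probe and the second ZMAT3 probe have both red points below both blue points. The 3 dimmer MDM2 probes have open symbols only.

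PLK2 encodes polo-like kinase 2, a serine/threonine kinase that acts at the centrosome and in the stress response of cycling cells. Its single probe had linear signals of 378.5 and 472.1 on the shCntrl arrays and of 796.7 and 927.9 on the shT7#1 arrays. After normalisation these were 8.21 and 8.46 log2 units in shCntrl and 9.57 and 9.60 in shT7#1. Both shT7#1 arrays lay above both shCntrl arrays by more than the gap between replicates. The means were 8.33 ± 0.18 (SD, n = 2) and 9.58 ± 0.02 (SD, n = 2). The log2 change was 1.25 ± 0.13 (SE), with a 95% interval from 0.92 to 1.58 and a limma adjusted p of 0.0103. By size of change PLK2 stood at place 175 among the 14731 genes. PLK2 stands at 2.47-fold in the authors' deposited table. On the authors' processed values limma gave an adjusted p of 0.0509, above the threshold. The call was also lost when shCntrl replicate 1 (adjusted p 0.0620), shT7#1 replicate 1 (0.0730) or shT7#1 replicate 2 (0.0731) was left out of the limma fit, with changes between 1.12 and 1.26 log2 units.

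PLK3, a related kinase of the same family that p53 also activates, lay close to the background. On the shCntrl arrays its log2 signal was 5.36 and 4.84, on the shT7#1 arrays 5.10 and 5.14, and it was above background on 1 shCntrl array and on both shT7#1 arrays. The shT7#1 values lay between the shCntrl values. The change was 0.02 ± 0.19 log2 units (SE), with a 95% interval from -0.45 to 0.49 and a limma adjusted p of 0.968. Whether PLK2 and PLK3 differ in response was not tested.

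GADD45A encodes a small stress protein that binds PCNA and cyclin-dependent kinase 1 and slows entry into mitosis. At its brighter probe the log2 signal was 9.15 and 9.05 in shCntrl and 9.48 and 9.66 in shT7#1. At its second probe it was 8.73 and 8.63 in shCntrl and 9.30 and 9.05 in shT7#1. At both probes the groups did not overlap, with shT7#1 the higher. The brighter probe differed by 0.47 ± 0.13 log2 units (SE), a fold of 1.38, with a 95% interval from 0.15 to 0.78. The limma adjusted p was 0.0902, so it was not called. The second probe differed by 0.50 ± 0.14 (SE), limma adjusted p 0.113 over the 20366 passing probes. The authors' deposited table lists GADD45A at 1.41-fold. Over 13 alternative settings the limma adjusted p lay between 0.00849 and 0.271. It was under the threshold in 3 of them: without background correction, with a larger background offset (0.0260), and with a variance trend and robust shrinkage (0.00866).

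BTG2, an antiproliferative protein that recruits the deadenylase complex to messenger RNAs, was above background on only 1 of the 4 arrays. Its log2 signal was 4.58 and 4.83 in shCntrl and 4.96 and 5.06 in shT7#1, and only the last of these was above background. Both shT7#1 values lay above both shCntrl values. The probe failed the filter, so it has no test, and no fold is given because 1 of the shT7#1 values was itself in the background. The authors' deposited table lists BTG2 at 1.71-fold, from mean log2 values of 2.91 and 3.68.

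MDM2 encodes the ubiquitin ligase that degrades p53 and is transcribed from 2 promoters, of which the inner is the p53-dependent one and holds the element printed above. It had 4 probes, and 3 of them were not above background on any array. The remaining probe read 4.87 and 5.03 log2 units on the shCntrl arrays, 4.91 and 5.42 on the shT7#1 arrays, and was above background on 1 array of each group. The values of the groups overlapped. The difference was 0.21 ± 0.19 log2 units (SE), with a 95% interval from -0.26 to 0.69 and a limma adjusted p of 0.548. Its sign depended on 1 array: without shT7#1 replicate 2 the difference was -0.039.

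GDF15, a secreted member of the TGF-beta superfamily released by stressed cells, was above background on all 4 arrays. Its log2 signal was 6.02 and 5.75 in shCntrl and 5.79 and 5.71 in shT7#1, with overlapping groups. The difference was -0.13 ± 0.14 log2 units (SE), with a 95% interval from -0.48 to 0.21 and a limma adjusted p of 0.609. GDF15 stands at 0.87-fold in the authors' deposited table.

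TP53INP1, a nuclear and autophagy-linked protein that p53 induces, was lower at its brighter probe in both shT7#1 arrays. Its log2 signal there was 7.18 and 7.17 for shCntrl, against 6.98 and 6.85 for shT7#1. The difference was -0.26 ± 0.12 log2 units (SE), with a 95% interval from -0.55 to 0.04 and a limma adjusted p of 0.247. The second probe had overlapping groups and differed by -0.14 ± 0.15 (SE). Neither probe was called. The value for the gene was negative in all 13 alternative settings, between -0.32 and -0.15. They include the mean of both probes (-0.20) and the authors' processed value per symbol (-0.24).

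SESN1 encodes sestrin 1, which restrains oxidants and the growth kinase complex mTORC1. Its log2 signal was 6.02 and 6.05 for shCntrl, against 6.33 and 6.05 for shT7#1. The lower shT7#1 value lay between the shCntrl values, so the groups overlapped. The difference was 0.15 ± 0.14 log2 units (SE), with a 95% interval from -0.20 to 0.49 and a limma adjusted p of 0.571.

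RRM2B encodes the p53-inducible small subunit of ribonucleotide reductase, which supplies deoxynucleotides for DNA repair outside S phase. Its brighter probe gave 7.28 and 7.27 log2 units for shCntrl, against 7.34 and 7.29 for shT7#1. The groups did not overlap, but the difference was 0.03 ± 0.11 (SE), with a 95% interval from -0.25 to 0.31 and a limma adjusted p of 0.894. The second probe had overlapping groups and a difference of -0.10 ± 0.14 (SE).

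ZMAT3, an RNA-binding zinc finger protein that p53 induces, had 2 probes above background on all arrays. The brighter gave 11.45 and 11.71 log2 units in shCntrl and 11.37 and 11.75 in shT7#1, so the replicates of each group spread more widely than the groups differed. The difference came to -0.021 ± 0.18 log2 units (SE; limma adjusted p 0.960). The second probe gave 8.36 and 8.25 in shCntrl and 7.95 and 8.08 in shT7#1. These groups did not overlap, with shT7#1 the lower, and the difference was -0.29 ± 0.13 (SE; limma adjusted p 0.252 over all passing probes).

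**Figure D3:**
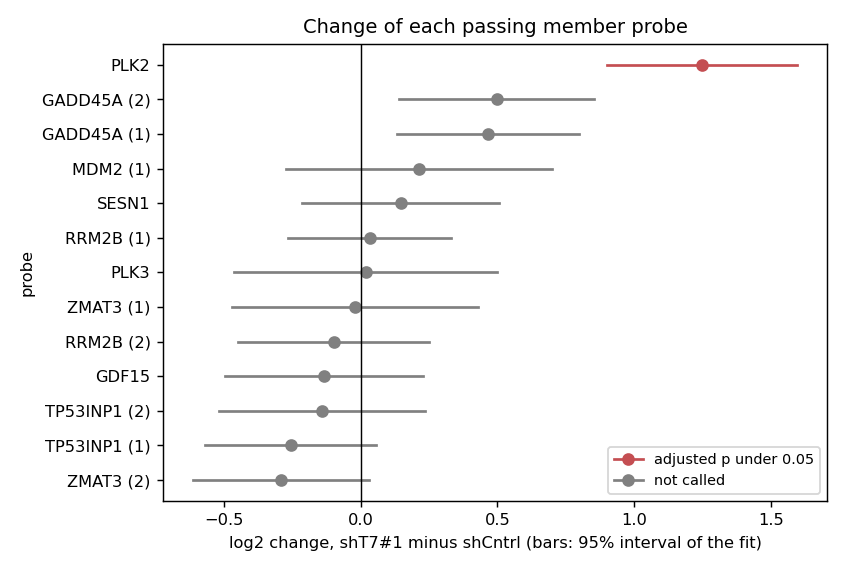
Log2 change of each of the 13 passing member probes, shT7#1 minus shCntrl (x axis), with the 95% interval of the limma fit over all passing probes; red marks an adjusted p under 0.05. The interval of PLK2 and those of both GADD45A probes lie above 0, and those of the other 10 probes include 0.

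The members can be set beside other genes of the pathway, taken from lists chosen with earlier results of these data known. Of 36 further p53 target genes, 30 were tested, of which 2 rose, 1 fell and 27 were not called. This made 10% called, where 6.5% of all genes tested were called (2.95% higher and 3.55% lower). An unadjusted limma p under 0.05 was found for 13 of the 30, where 25.9% of all genes had one. The median log2 change of the 30 was 0.19, and that of all genes tested was -0.0003. AEN, an exonuclease that p53 induces during apoptosis, rose by 0.90 ± 0.13 log2 units (SE), limma adjusted p 0.0200. The other AEN probe differed by 0.60 ± 0.16 (SE) and was not called. AEN kept its call in 8 of 13 alternative settings and lost it on the authors' processed values, where it was 0.93 (limma adjusted p 0.0708). CDKN1A, the cyclin-dependent kinase inhibitor p21, read 10.80 and 10.89 log2 units on the shCntrl arrays and 11.41 and 11.40 on the shT7#1 arrays. It rose by 0.56 ± 0.11 (SE), with a limma adjusted p of 0.0496, and kept its call in 5 of 13 alternative settings. In the fit over all passing probes the same CDKN1A probe was not called (limma adjusted p 0.0642). With the replicate number as a block the limma adjusted p of CDKN1A was 0.0507, which is not a call, and on the authors' processed values the change was 0.25 (limma adjusted p 0.542). The authors' deposited table lists CDKN1A at 1.19-fold, from mean log2 values of 6.83 and 7.08. Those are values per symbol, whereas the probe above averaged 10.85 log2 units in shCntrl and 11.41 in shT7#1. The change of 0.25 is therefore of another measure than that of 0.56. A second CDKN1A probe was not above background on any array. How it enters the authors' value per symbol was not tested. PERP, a desmosomal membrane protein that p53 and p63 induce, fell by 0.60 ± 0.12 log2 units (SE), with a limma adjusted p of 0.0444, and kept its call in 6 of 13. In the fit over all passing probes PERP was not called (limma adjusted p 0.0576), while the brighter AEN probe was (0.0271). Each of these 3 lost its call when any 1 array was left out, with limma adjusted p between 0.0779 and 0.191.

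Among 16 relatives of the members, such as GADD45B, PLK1, PLK4, BTG1 and RRM2, 12 were tested. Of these, 0 were called by limma, where 6.5% of all genes tested were called. An unadjusted limma p under 0.05 was found for 3 of the 12, where 25.9% of all genes had one. The log2 changes of the 12 ranged from -0.40 to 0.47 around a median of 0.01. MDM4, 1 of these relatives, is a paralog of MDM2 that holds p53 inactive. It gave 5.15 and 5.35 log2 units for shCntrl, against 4.60 and 5.28 for shT7#1. The lower shT7#1 value was not above background, the other 3 were, and the groups overlapped. MDM4 was not called (limma adjusted p 0.470), and no size of difference is read from a value in the background.

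Of 11 genes of ATF4 and the integrated stress response, 9 were tested, of which 2 rose and 1 fell. This made 33.3% called, where 6.5% of all genes tested were called. An unadjusted limma p under 0.05 was found for 6 of the 9, where 25.9% of all genes had one. The median log2 change of the 9 was 0.36, and that of all genes tested was -0.0003. ATF3, a stress-induced transcription factor, rose by 1.03 ± 0.17 log2 units (SE), with a limma adjusted p of 0.0316. PPP1R15A, known as GADD34, which restores translation after stress, rose by 0.96 ± 0.12 (SE), with a limma adjusted p of 0.0137. DDIT4, known as REDD1, an mTORC1 inhibitor that p53, hypoxia and ATF4 can each induce, fell by 1.02 ± 0.11 log2 units (SE), with a limma adjusted p of 0.0112. Of 11 immediate early genes, 10 were tested, of which 1 was called higher and 1 lower around a median of -0.06. This made 20% called, against the same 6.5% of all genes. An unadjusted limma p under 0.05 was found for 2 of the 10. Both counts include FOS, whose call is qualified below, so they are not read as a result about the list. IER3, an early response gene that p53 and NF-kB regulate, rose by 0.70 ± 0.12 log2 units (SE), with a limma adjusted p of 0.0317. FOS, a subunit of AP-1, was not above background in shT7#1 and was at least 1.36-fold lower there. It passed the filter through the shCntrl arrays alone. Its call (limma adjusted p 0.0214) therefore sets detected values against background values, and only the bound is read. The bound holds only for that scale. The log2 change of FOS was -0.26 without background correction (limma adjusted p 0.0527) and -0.39 with an offset of 50. These 5 genes also lost their calls when any 1 array was left out, with limma adjusted p between 0.0620 and 0.157. On the authors' processed values PPP1R15A (0.97), DDIT4 (-1.03) and IER3 (0.70) lost their calls with changes as large as those above. ATF3 lost its call there at 0.33 log2 units (limma adjusted p 0.324), and was 0.60 without background correction, where it was called. The value of 0.33 is per symbol, and that of 1.03 is of a single probe. The other ATF3 probes were not above background on any array. How they enter the authors' value was not tested. On the authors' processed values FOS kept its call, but no size is read because its shT7#1 signal was not above background.

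**Figure D4:**
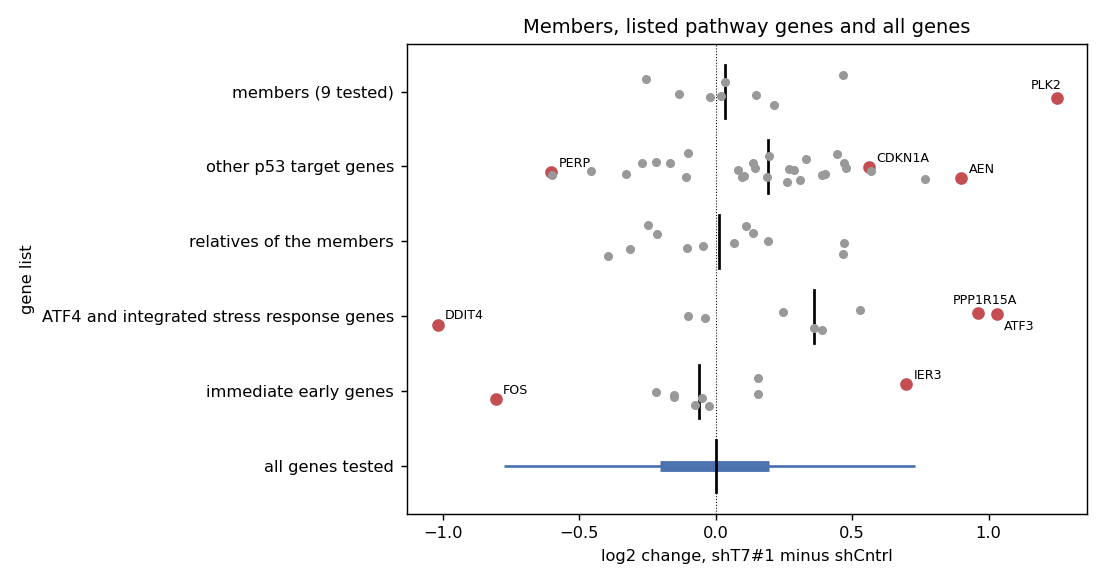
Log2 change, shT7#1 minus shCntrl (x axis), of the 9 tested members and of the tested genes of 4 lists, 1 point per gene; red points with names passed an adjusted p of 0.05 and black bars are medians. For all genes tested the thick blue bar spans the middle 50% and the thin line the middle 95%, from -0.78 to 0.73. PLK2 is the red point of the members at 1.25, and the p53 targets AEN and CDKN1A lie to the right and PERP to the left.

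**Figure D5:**
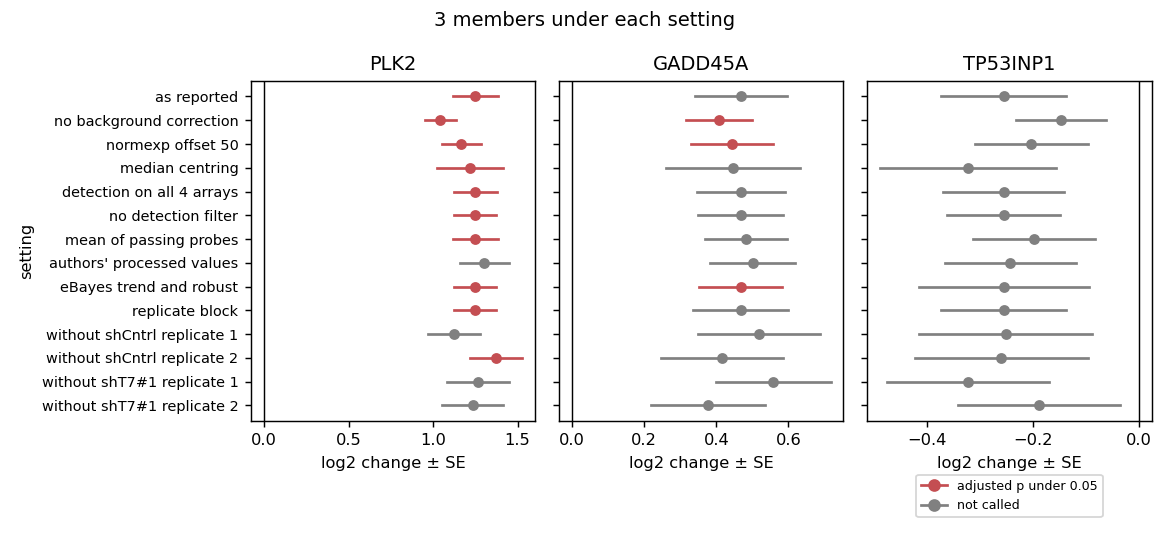
Log2 change ± SE of PLK2, GADD45A and TP53INP1 (x axes) as reported and under 13 alternative settings (y axis), with red for an adjusted p under 0.05. PLK2 lies between 1.04 and 1.37 in every alternative and is red in 9 of 13; GADD45A is red in 3, and TP53INP1 in 0.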

How the data were processed

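The deposited table gave 1 linear signal intensity per probe and array, not normalised, and a detection p-value per probe and array. The submitters' processing notes name GenomeStudio 2011.1. The deposited value table holds the authors' log2 values, 1 per gene symbol. The authors' deposited fold table gives their mean log2 value per group and linear fold ratio. Its header names RMA in ArrayStar and says that genes under 2.5 log2 units in both groups were removed, and its means equal those of the value table. The 2 shCntrl columns of the value table match the intensities of the other replicate number, and replicate numbers here are those of the intensity table.

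Intensities were processed with limma 3.58.1 in R 4.3.3: normexp background correction from the detection p-values (offset 16), log2 and quantile normalisation. Probes above background (detection p under 0.05) on at least 2 arrays were kept, 20366 of 47323, and each gene was represented by its brightest kept probe (14731 genes). Symbols were updated through RefSeq (GRCh38.p14), with 17761 of 31426 current and 3297 updated. The fit (lmFit and eBayes, two-sided) used the group alone, with 2 residual degrees of freedom per gene and 3.66 prior. Values of second probes come from the same fit over all kept probes. The detection floor is the lowest normalised signal above background on each array, 4.92 to 4.98. The code was tested on simulated data. Only 4 arrays limit the precision.

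Named were all 10 members, TRPM7, up to 5 called genes per list by size of change, and MDM4 and CDKN1A. A further gene of this rule, and the list that holds it, are not reported here. The members and lists were chosen with earlier results of these data known. Background, normalisation, filter, probe choice, source of values, shrinkage, a replicate block and leaving out each array were tried as alternatives.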

Additional observations from a re-analysis of the deposited data

How the results depend on the processing

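Over 13 alternative settings, 0 members were called lower. The count of members called higher, 1 as reported, was 2 without background correction, with an offset of 50 and with trend and robust shrinkage, 0 on the authors' processed values, and between 0 and 1 when an array was left out. PLK2 was 1.30 log2 units on the authors' values and between 1.12 and 1.37 when an array was left out. Over all genes, 434 were higher and 523 lower as reported. The counts were 1161 and 1262 without background correction, 962 and 1086 with an offset of 50, 699 and 818 with detection on all 4 arrays (12522 genes), 114 and 101 on the authors' values (14083 genes), 1180 and 1305 with trend and robust shrinkage, and between 69 and 86 and between 38 and 53 when an array was left out. Differences near 0 changed sign: ZMAT3 to 0.0076 and PLK3 to -0.0018 under median centring, and RRM2B to -0.026 under median centring, -0.033 with the mean of passing probes and -0.043 on the authors' values. With an array left out, MDM2 ranged from -0.039 to 0.47, GDF15 from -0.27 to 0.0022, ZMAT3 from -0.21 to 0.17 and PLK3 from -0.24 to 0.28. The cause of these moves was not tested, and some of the settings have fewer arrays or fewer genes, as given above. MDM2 had no value with detection on all 4 arrays, nor had PLK3.

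The labels do not say whether replicate numbers pair the arrays, and they were not treated as pairs. Deviations of same-numbered arrays from their group means correlated at 0.12 across genes, a value whose sign turns with the shCntrl order of the authors' table. With the replicate block 563 genes were higher and 676 lower, PLK2 had a limma adjusted p of 0.0113, CDKN1A 0.0507, past the threshold, and no other named gene changed its call. MDM2, PLK3 and BTG2 lie too near the background for a change of either sign to be read.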

Other observations

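The authors' processed table and the intensity table number the shCntrl arrays in opposite order. Over 8919 genes with a single probe that passed the filter, the difference between replicates 1 and 2 correlated across genes at -0.74 between the tables for shCntrl and at 0.75 for shT7#1. The group of each array is the same in both tables, so group means are not affected, while any value tied to a shCntrl replicate number depends on which table is used.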
